A study of Homo sapiens with 32 samples.

Results

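Described here are 124 genes whose RNA was low by 2 h and still low at 6 h in RH4 cells treated with dCBP or IHK-44. They were chosen by how far they lay from the time-matched DMSO library, taken on the log2 scale of CPM plus 1, where CPM scales a gene's count to the same total of coding counts in each library. A gene entered when its mean CPM over the DMSO and NT libraries was at least 5 and this log2 ratio was -0.8 or less in the 4 dCBP and IHK-44 libraries of 2 h and in the 4 of 6 h. Of 18980 coding genes in the files, 10416 reached that level, 159 of these were past the ratio in the 4 libraries of 2 h, and 134 of the 159 were also past it in the 4 of 6 h. By symbol, 10 of the 134 were left out (BMP4, BTG2, KLF3, KLF4, KLF10, MYC, MYCN, PLK2, SPRY2 and ZNF608), which left the 124.

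RH4 is an established line of human alveolar rhabdomyosarcoma, a childhood soft-tissue cancer with features of skeletal muscle precursors. The series describes the compounds together as inhibitors or degraders of CBP/p300, and total RNA was sequenced after 2 h and 6 h with each of 4 of them (JQAD, IHK-44, dCBP and A485), at a low dose of 100 nM and a high dose of 1000 nM. The controls were DMSO, as solvent, and NT, an abbreviation that no label explains, both at 2 h and 6 h. That gives 20 RNA-seq libraries, 1 for each condition, and 13466631 to 16799327 coding counts in each. Every sample came from the 1 cell line, and the labels name no genotype, transgene or pooled material. Epithelial and blood cell markers were under 1 CPM in the 20 libraries, as were 3 of the 4 endothelial markers. The 9 muscle-line markers summed to between 3197 and 3458 CPM in the DMSO and NT libraries. In the same libraries the 5 fibroblast markers summed to between 2713 and 2813 CPM. In bulk RNA, fewer cells with a transcript and less of it in each cell cannot be told apart.

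CBP and p300 are closely related acetyltransferases that acetylate histones and other proteins at enhancers and promoters and serve as coactivators for many transcription factors. Transcripts with short half-lives follow changes in transcription within hours, and they often encode transcription factors, feedback inhibitors of signalling and secreted or surface signals. In rhabdomyosarcoma, MYOD1 belongs to the muscle-lineage programme of the cells, and A485 is known as an inhibitor of the acetyltransferase activity of CBP and p300.

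The members were spread over signalling and regulatory classes, assigned by known function after the members were chosen. The 39 DNA-binding transcription factors made up 31.5% of the 124. Classes were not counted over all genes at the minimum level, so whether any class was over-represented was not tested. The transcription factors MYC and MYCN were among the genes left out by symbol, so this share also depends on that step. The other classes held 9 cofactors or inhibitors of transcription factors, 11 ligands or secreted proteins, 13 receptors or surface proteins, 13 pathway inhibitors, 14 kinases, adaptors or other signalling proteins, 8 GTPases, their regulators or cytoskeleton proteins, 4 growth arrest or apoptosis proteins, 4 RNA-binding or RNA-modifying proteins and 9 transporters, enzymes or others.

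Promoter windows from RefSeq (GRCh38.p14) are shown for 3 members, the ones with the lowest ratios among the 61 members that had 1 window in the table. They are shown because the series title concerns CpG island density, and the 3 windows differed in their number of CpG. Each is read 5′ to 3′ on the gene's strand, with CpG dinucleotides in capitals.
GAS1: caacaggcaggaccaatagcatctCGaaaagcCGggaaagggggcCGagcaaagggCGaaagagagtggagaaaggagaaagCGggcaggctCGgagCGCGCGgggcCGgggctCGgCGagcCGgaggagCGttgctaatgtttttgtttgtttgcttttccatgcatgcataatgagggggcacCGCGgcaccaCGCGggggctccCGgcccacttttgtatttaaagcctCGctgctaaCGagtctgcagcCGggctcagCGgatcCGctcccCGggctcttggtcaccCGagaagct
IL1RAPL2: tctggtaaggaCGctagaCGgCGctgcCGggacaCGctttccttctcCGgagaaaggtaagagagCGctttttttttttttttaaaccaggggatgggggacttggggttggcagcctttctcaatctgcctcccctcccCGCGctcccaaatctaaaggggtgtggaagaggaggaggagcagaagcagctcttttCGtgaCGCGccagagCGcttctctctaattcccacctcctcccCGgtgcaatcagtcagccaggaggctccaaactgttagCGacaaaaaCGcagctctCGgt
FLRT3: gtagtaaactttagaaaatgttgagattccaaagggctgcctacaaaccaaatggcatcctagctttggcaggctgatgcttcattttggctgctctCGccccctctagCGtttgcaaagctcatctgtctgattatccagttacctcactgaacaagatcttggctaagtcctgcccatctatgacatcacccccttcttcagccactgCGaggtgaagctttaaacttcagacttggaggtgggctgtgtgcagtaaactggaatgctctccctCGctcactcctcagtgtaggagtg
The GAS1 window (chr9:86947457-86947756, minus strand) held 26 CpG at a GC content of 61.7%. The median over the 12812 windows of genes at the same minimum level was also 26 CpG. In the IL1RAPL2 window (chrX:104565949-104566248, plus strand) there were 17 CpG at 55.7% GC. The FLRT3 window (chr20:14337563-14337862, minus strand) held 4 CpG at 48.7% GC. Of the 12812 windows, 51.3%, 75.0% and 93.8% had at least as many CpG as GAS1, IL1RAPL2 and FLRT3, in that order. The motifs searched, on both strands, were TATAAA of the TATA box (in 6.16% of the 12812 windows), CACGTG of the MYC type of E-box (9.50%), TGACGTCA of the cyclic AMP response element (2.98%), TGANTCA of AP-1 (4.57%), CAGCTG of the E-box bound by MYOD1 (16.9%) and CCGGAA of ETS factors (28.3%). None of these letters stood in the 3 windows. Only 93 of the 124 members (75.0%) had a window, so a comparison of the whole set with other promoters was void and is not given.

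The values that chose the members are given as a description. Their median ratio to DMSO at 2 h was -1.38 with 1000 nM and -1.23 with 100 nM of dCBP, and -1.43 and -1.23 with IHK-44. At 6 h the medians were -2.09 and -2.19 with dCBP and -2.28 and -2.01 with IHK-44. Over the 10416 genes the medians of these 8 libraries lay between 0.04 and 0.20. By the rule the 124 are past -0.8 in each of them, where 2.57% and 2.01% of the 10416 genes were past it with 1000 nM and 100 nM dCBP at 2 h and 8.16% and 9.62% at 6 h. With 1000 nM and 100 nM IHK-44 the shares were 2.48% and 2.04% at 2 h and 9.01% and 8.29% at 6 h, and 1.29% of genes were past it in the 8 libraries together. Just inside the threshold were THEMIS2, HEYL and PRAG1, with a highest ratio of -0.80, -0.81 and -0.82. PRTG (-0.80 after rounding), TNFAIP3 (-0.79) and ADAMTS5 (-0.78) lay just outside it. Against NT in place of DMSO, 111 of the 124 were past the threshold in the 8 libraries.

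The lowest mean ratios over the 8 libraries belonged to SPRY1 (-3.65), ZFP36L1 (-3.02), GAS1 (-2.97), IL1RAPL2 (-2.95), FLRT3 (-2.93) and CASS4 (-2.79). SPRY1, a feedback inhibitor of receptor tyrosine kinase signalling, stood at 90.9 and 102 CPM with DMSO at 2 h and 6 h, at 11.1 and 4.50 CPM with 1000 nM dCBP and at 2.45 and 1.44 CPM with 1000 nM IHK-44. GAS1, a surface protein that acts as a Hedgehog co-receptor, stood at 311 and 333 CPM with DMSO, at 57.4 and 21.5 CPM with 1000 nM dCBP and at 52.5 and 9.92 CPM with 1000 nM IHK-44. In both genes the 6 h libraries of these doses were lower than those of 2 h.

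Between the 2 doses of dCBP, 90 of the 124 at 2 h and 70 at 6 h were lower at 1000 nM than at 100 nM, against 50.2% and 49.2% of the 10416 genes, at a median difference of -0.17 and -0.04. With IHK-44, 104 members at 2 h and 84 at 6 h were lower at the high dose, against 42.4% and 38.9% of genes, at medians of -0.20 and -0.32. At 6 h, 35 members were lower by 0.8 or more at 1000 nM IHK-44, against 1.04% of genes, and the lowest difference was -3.68. These doses entered the rule. MYOD1 had one of the widest gaps between the IHK-44 doses at 6 h, at 270.1 CPM with 100 nM and 27.2 CPM with 1000 nM.

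**Figure D1:**
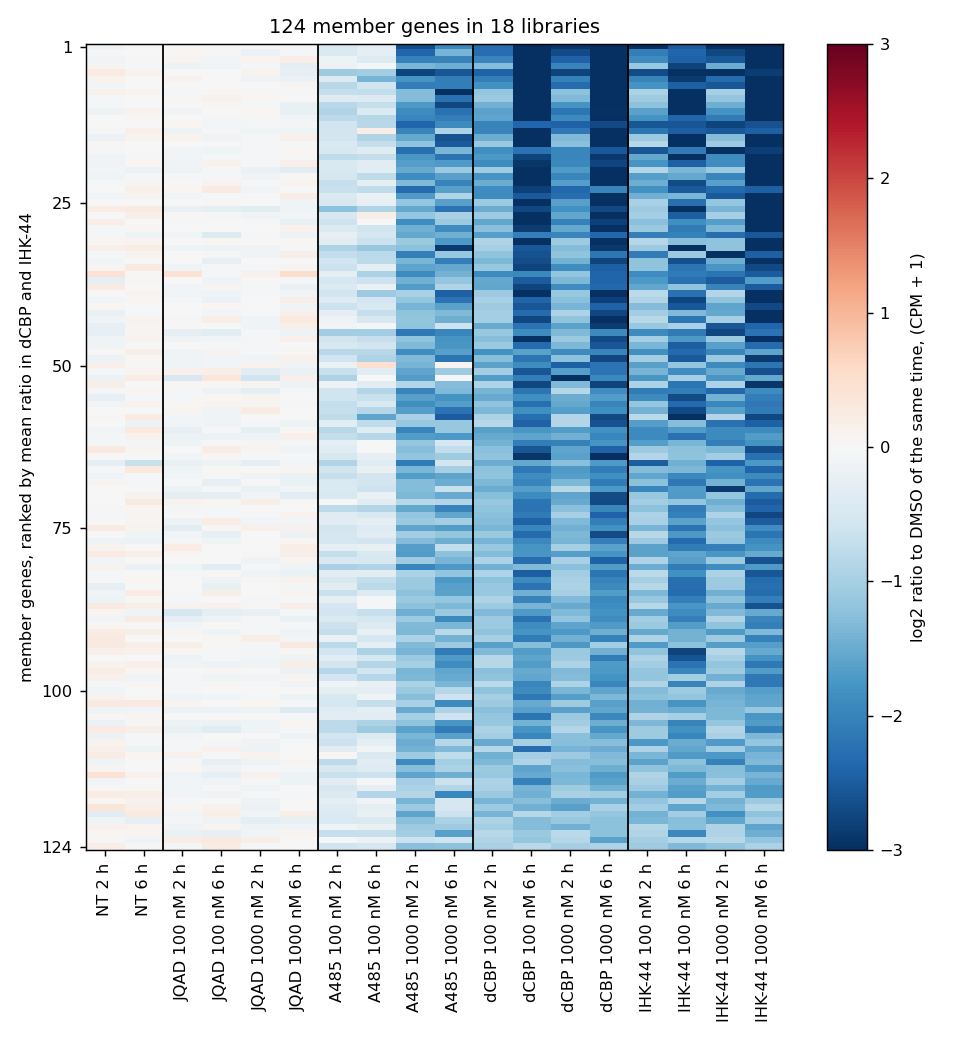
Log2 ratio to time-matched DMSO (CPM + 1) for the 124 members (rows, ranked by mean ratio over the 8 dCBP and IHK-44 libraries) in 18 libraries (columns), with colours limited to between -3 and 3. The NT and JQAD columns are close to 0, the A485 columns are pale at 100 nM and darker at 1000 nM, and the dCBP and IHK-44 columns, which chose the genes, are dark at both doses.

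A485 was not used by the rule, so its libraries were set against NT, which entered the rule only through the minimum level. The A485 and JQAD libraries of a time share 1 NT library. The 2 h and 6 h libraries of a condition stood in for replicates in edgeR's quasi-likelihood fit of 12 libraries (DMSO, NT, A485 and JQAD). A shift between the times common to all conditions was fitted. The error thus includes how far a condition's change differed between the times. Fitted log2 changes are given with their standard error (±) and edgeR's adjusted p. With 1000 nM A485, 121 of the 124 members fell at an adjusted p under 0.05 and none rose, whereas 8.31% of the 13001 genes tested fell and 6.61% rose. The median fitted log2 change was -1.62 over the members, with a range of -3.18 to -0.74, and 0.02 over all genes. KIAA0408 (log2 change -1.19, adjusted p = 0.057), SMAD7 (-1.03, adjusted p = 0.096) and S1PR1 (-0.76, adjusted p = 0.13) did not pass. In a fit that also took in the dCBP and IHK-44 libraries, the count was 69.

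By single libraries, 123 members at 2 h and 110 at 6 h were at or under a ratio of -0.8 to NT with 1000 nM A485, against 2.55% and 6.47% of the 10416 genes. Both times were past that value for 110 members and for 1.90% of all genes. Below NT at all were 124 members at 2 h and 122 at 6 h, against 40.5% and 36.7% of genes. Both 1000 nM A485 libraries were lower than both NT libraries for 122 members, against 19.0% of the 10416 genes. The summed CPM of the 124 members was 14088 and 13245.5 with NT at 2 h and 6 h, 5338 and 4721 with 1000 nM A485, and between 1986 and 3418 in the 4 dCBP and IHK-44 libraries of 6 h, which chose the genes. The 9 muscle-line markers, of which MYOD1 is 1, summed to between 2018 and 3191 CPM in the 4 A485 libraries, and 5 of the 9 fell with 1000 nM. The fibroblast markers (5, with LUM under 1 CPM) summed to between 2713 and 2813 CPM in the controls and to between 2282 and 2831 CPM with A485, and 2 of the 4 that could be tested fell with 1000 nM. The part of either in the members' change was not tested.

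Among the 39 transcription factors, each of the 39 fell with 1000 nM A485, with a median log2 change of -1.5. The muscle and bHLH factors were MYOD1, MSC (a repressor of the muscle programme), ATOH8, BHLHE40 and the Notch-responsive repressors HES1 and HEYL. MYOD1, the master regulator of the muscle lineage, was at 508 and 648 CPM with NT and at 590.2 and 677 CPM with DMSO at 2 h and 6 h. With A485 its level was 482 and 418 CPM at 100 nM and 256 and 272 CPM at 1000 nM. Thus both 1000 nM libraries were below the 4 controls and the 4 JQAD libraries (576 to 747 CPM), with a log2 change to NT of -1.22 ± 0.13 (adjusted p = 0.00024). Per length, MYOD1 had the highest mean level of the members in the controls, at 364 FPKM (the authors' value scaled to transcript length and depth), ahead of ID3 at 280.0 and MSC at 170.2. ATOH8, one of the 6 members with the highest CPM, was at 446 and 405 CPM with NT, 337 and 246 CPM with 100 nM and 199.6 and 116 CPM with 1000 nM A485 (-1.55 ± 0.16, adjusted p = 0.00023). HEYL, which lay just inside the threshold, was at 295 and 353 CPM with NT and 151 and 60.1 CPM with 1000 nM A485, lower at 6 h than at 2 h (-1.74 ± 0.32, adjusted p = 0.0067).

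The homeobox factors SIX2 and SIX4 fell. SIX4 was at 108 and 88 CPM with NT and at 27.8 and 46.8 CPM with 1000 nM, so its 6 h library was the less reduced one (-1.51 ± 0.18, adjusted p = 0.00052). SIX2 fell by 1.5 on the log2 scale.

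JUN, FOSL2 and ATF3, which encode AP-1 and related factors of the early response to signals, fell as well. JUN was at 491 and 508 CPM with NT, at 366 and 394 CPM with 100 nM and at 106 and 195 CPM with 1000 nM A485 (-1.86 ± 0.17, adjusted p = 8.5e-05). The 2 h library of the high dose was the lowest of these 6 libraries. ATF3 went from 39.8 and 28.6 CPM with NT to 11 and 7.66 CPM (-1.97 ± 0.12, adjusted p = 6.3e-06), and FOSL2 from 131 and 93.7 to 65.5 and 49.4 CPM (-1.05 ± 0.09, adjusted p = 4.2e-05).

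The other transcription factors covered many developmental families. They included the homeobox factors EN2, DBX1 and PROX1, the forkhead factors FOXA2, FOXC2 and FOXF1, the T-box factors TBX2 and TBX15, SOX4 and SOX9, the AP-2 factors TFAP2A and TFAP2B, MYCL, the nuclear receptors NR2F2 and RARA, the ligand-activated factor AHR, the zinc finger factors BCL11A, BCL11B, SNAI1, ZEB2, INSM1, TSHZ3 and TRPS1, and ARID5B, DMRT2 and TOX3. TFAP2B, a gene listed from other work as a target of the PAX3-FOXO1 fusion of this tumour, was at 81.1 and 64.2 CPM with NT, at 57 and 38.7 CPM with 100 nM and at 33.5 and 10.4 CPM with 1000 nM A485 (-1.90 ± 0.28, adjusted p = 0.0020). Its 6 h library of the high dose was the lowest of the 6. FOXF1 was at 85.8 and 77.2 CPM with NT and 38.4 and 38.2 CPM at 1000 nM (-1.18 ± 0.11, adjusted p = 9.7e-05). SOX4 and TRPS1 were among the larger changes of the class, at -2.0 and -2.33, and FOXC2 among the smaller, at -0.93. SNAI1, a repressor active in epithelial-mesenchymal transition, went from 75.7 and 50.1 CPM to 29.6 and 31.7 CPM (-1.09 ± 0.15, adjusted p = 0.0013). MYCL, a MYC family factor, went from 77.4 and 66.3 to 35.9 and 15.6 CPM (-1.62 ± 0.23, adjusted p = 0.0016).

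Each of the 9 cofactors and inhibitors of transcription factors fell with 1000 nM A485, at a median log2 change of -1.72. ID1 and ID3, which keep bHLH factors such as MYOD1 from binding DNA, were at 86.9 and 76.1 and at 216 and 213 CPM with NT. With 1000 nM A485, ID1 was at 22.3 and 28.6 CPM (-1.76 ± 0.16, adjusted p = 9.3e-05) and ID3 at 52.8 and 89.3 CPM (-1.70 ± 0.19, adjusted p = 0.00027). CITED2, whose protein binds CBP and p300 directly, went from 72.7 and 67.6 CPM with NT to 46.6 and 38.1 CPM with 100 nM and 12.9 and 17.6 CPM with 1000 nM (-2.29 ± 0.14, adjusted p = 5.3e-06). The levels of CITED2 thus lay in the order of the dose at both times, as did those of 117 members and 10.2% of the 10416 genes. The remaining members of the class were the corepressor TLE3, the TEAD cofactor VGLL2, the nuclear NF-kappaB regulators BCL3 and NFKBIZ, IRF2BP2 and MN1. IRF2BP2 went from 106 and 107 to 39.8 and 38.7 CPM (-1.54 ± 0.09, adjusted p = 4.3e-06), and NFKBIZ had the smallest change of the 124 at -0.74.

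The 11 ligands and secreted proteins fell as a whole class with 1000 nM A485, with a median of -1.56. DLL1 and JAG1 are Notch ligands, BMP2 is a bone morphogenetic protein, FGF7 and FGF9 are fibroblast growth factors, EFNB2 is a ligand of EPH receptors, RGMA and RGMB are BMP co-receptors with guidance roles, and ADAMTS1 (a protease), STC1 (a hormone-like glycoprotein) and FJX1 are secreted. BMP2 was at 29.5 and 27.8 CPM with NT, at 17.7 and 14.7 CPM with 100 nM and at 8.54 and 5.17 CPM with 1000 nM A485 (-2.17 ± 0.16, adjusted p = 1.9e-05). DLL1 went from 106 and 95.1 to 37.6 and 35.2 CPM (-1.56 ± 0.12, adjusted p = 1.9e-05) and JAG1 from 33.9 and 39 to 14.9 and 11.2 CPM (-1.56 ± 0.17, adjusted p = 0.00024). ADAMTS1 was among the members with the lowest adjusted p, at 257 and 233 CPM with NT and 64.1 and 55 CPM at 1000 nM (-2.14 ± 0.09, adjusted p = 3.6e-07). In these 4 genes the 2 libraries of 1000 nM were lower than both of 100 nM, which were lower than both of NT.

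Of the 13 receptors and surface proteins, 12 fell with 1000 nM A485, at a class median of -1.69. They included the WNT receptor FZD8, the Hedgehog receptor PTCH1, the ephrin receptor EPHA2, FLRT3, IL1RAPL2, the protocadherin PCDH18, SHISA2 and the G protein-coupled receptors BDKRB1, MCHR1, P2RY1 and PTGER4. FLRT3, an adhesion protein that also acts in fibroblast growth factor signalling, had the largest change of the 124, from 48.1 and 34.9 CPM with NT to 18.7 and 15.1 CPM with 100 nM and 5.04 and 4.61 CPM with 1000 nM (-3.18 ± 0.14, adjusted p = 4.0e-07). GAS1 was at 289.8 and 341 CPM with NT, at 278 and 249.6 CPM with 100 nM and at 75.9 and 82.7 CPM with 1000 nM (-2.09 ± 0.11, adjusted p = 2.1e-06). Its 100 nM libraries lay under those of NT and its 1000 nM libraries far under both. FZD8 went from 66.6 and 64.7 to 21 and 17.2 CPM (-1.88 ± 0.12, adjusted p = 9.0e-06). S1PR1, the sphingosine-1-phosphate receptor, did not pass: it was at 35 and 33 CPM with NT and at 11.3 and 33.9 CPM with 1000 nM, low at 2 h and at the NT level at 6 h.

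Of the 13 inhibitors of signalling, 12 fell with 1000 nM A485, and the class median, -1.92, was the lowest of the 10 classes. SPRY1 and the dual-specificity phosphatases DUSP1, DUSP4, DUSP6 and DUSP10 restrain MAP kinase signalling. SPRY1 was at 83.3 and 104 CPM with NT, at 64.5 and 81.1 CPM with 100 nM and at 13.6 and 26.5 CPM with 1000 nM (-2.34 ± 0.17, adjusted p = 1.5e-05), so the high dose stood well apart from the other 4 libraries. DUSP6 went from 26.5 and 40.2 to 11.1 and 16.7 CPM (-1.36 ± 0.14, adjusted p = 0.00016), and DUSP10 from 21.3 and 18.2 to 3.43 and 4.61 CPM (-2.38 ± 0.18, adjusted p = 1.9e-05). Each of these 3 was lower in both 1000 nM libraries than in both NT libraries. DUSP1 went from 24.5 and 21.6 to 6.40 and 10 CPM (-1.58 ± 0.22, adjusted p = 0.0012) and DUSP4 from 31 and 34.1 to 13.3 and 13.3 CPM (-1.38 ± 0.11, adjusted p = 2.5e-05).

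BAMBI, a decoy receptor for BMP and TGF-beta, ERRFI1, an inhibitor of the EGF receptor family, and DACT1, a modulator of WNT signalling, gave low adjusted p. BAMBI was at 36.5 and 26.9 CPM with NT, at 16.5 and 15.8 CPM with 100 nM and at 7.95 and 8.53 CPM with 1000 nM (-2.02 ± 0.13, adjusted p = 8.5e-06). ERRFI1 went from 217 and 218 to 73.1 and 74.4 CPM (-1.66 ± 0.08, adjusted p = 1.3e-06) and DACT1 from 38.5 and 28.7 to 9.57 and 7.28 CPM (-2.09 ± 0.11, adjusted p = 3.3e-06). LRIG3, IRAK3 (an inhibitor of Toll-like receptor signalling), RGS3 and TRIB1 complete the class with SMAD7. SMAD7, an inhibitor of TGF-beta and BMP signalling, was one of the 12 members under 10 CPM on average in the controls. It was at 14 and 8.21 CPM with DMSO, 11.3 and 4.76 CPM with NT and 2.52 and 5.29 CPM with 1000 nM A485. Its 6 h NT library was below its 6 h DMSO library, and there the A485 value lay between the controls.

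Each of the 14 kinases, adaptors and other signalling proteins fell with 1000 nM A485, at a median of -1.58. IRS1, the adaptor of the insulin and IGF receptors, was at 708 and 602 CPM with NT, at 564 and 448 CPM with 100 nM and at 298 and 126 CPM with 1000 nM (-1.78 ± 0.22, adjusted p = 0.00069). The 6 h library of the high dose was the lowest of these 6. The kinase DYRK2 went from 491 and 402 to 181 and 129.9 CPM (-1.62 ± 0.11, adjusted p = 8.9e-06), and PHLDA1 from 45.8 and 53.4 to 14.9 and 15.2 CPM (-1.81 ± 0.11, adjusted p = 6.1e-06). CASS4, an adaptor of the Cas family, was at 21.7 and 26 CPM with NT and 5.24 and 5.35 CPM at 1000 nM (-2.26 ± 0.23, adjusted p = 0.00018). The rest were SGK1, NUAK1, STK17B, the pseudokinase PRAG1, IP6K3, the adaptors BCAR3, SH2D3C and SASH1, PRICKLE1 (of planar cell polarity) and THEMIS2, with changes of -2.68 to -0.89. Of the members just inside the threshold, THEMIS2 went from 31.7 and 27.4 to 14.4 and 7.72 CPM (-1.53 ± 0.18, adjusted p = 0.00046) and PRAG1 from 64.6 and 34.8 to 22.8 and 14.8 CPM (-1.47 ± 0.12, adjusted p = 3.4e-05).

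The 8 GTPases, their regulators and cytoskeleton proteins fell at a median of -1.73. ENC1, an actin-binding protein, had the lowest adjusted p of the members, at 388 and 331 CPM with NT, 223 and 181 CPM with 100 nM and 98.8 and 76.5 CPM with 1000 nM (-2.13 ± 0.08, adjusted p = 1.8e-07). RND3, an atypical small GTPase, was at 66.5 and 59.7 CPM with NT, 46.2 and 60.5 CPM with 100 nM and 16.2 and 27.7 CPM with 1000 nM (-1.62 ± 0.22, adjusted p = 0.0013), and its 100 nM library at 6 h overlapped the NT level. CDC42EP3, a CDC42 effector, went from 210.2 and 158 to 65.7 and 22.7 CPM (-2.24 ± 0.25, adjusted p = 0.00027), and ARHGEF2, an exchange factor, from 218 and 256 to 111 and 96.2 CPM (-1.28 ± 0.12, adjusted p = 0.00010). INKA2, RASL11B, TAGLN3 and PALMD were the others.

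The 4 growth arrest and apoptosis genes GADD45A, GADD45G, IER3 and BMF fell, as did the RNA-binding or RNA-modifying genes ZFP36L1, RBM24, MEX3B and TENT5A. GADD45A was at 73.7 and 65.1 CPM with NT and 21.3 and 38.5 CPM with 1000 nM A485 (-1.32 ± 0.20, adjusted p = 0.0021). GADD45G went from 14.1 and 9.53 to 2.00 and 2.86 CPM (-2.34 ± 0.32, adjusted p = 0.0011) and IER3 from 18.6 and 19.7 to 7.11 and 9.77 CPM (-1.27 ± 0.20, adjusted p = 0.0024). In these 3 genes both 1000 nM libraries were below both NT libraries, as they were for 19.0% of the 10416 genes. ZFP36L1, which promotes decay of AU-rich messages, was at 245 and 253 CPM with NT, 186 and 205 CPM with 100 nM and 48 and 94.7 CPM with 1000 nM (-1.93 ± 0.19, adjusted p = 0.00012). RBM24, a splicing factor of muscle, went from 120.1 and 104 to 58.2 and 63.9 CPM, one of the smaller changes (-0.96 ± 0.09, adjusted p = 0.00013). Among transporters, enzymes and others, 8 of 9 fell: SLC38A2 (an amino acid transporter at 663 and 559 CPM with NT and 252 and 357 CPM with 1000 nM, -1.10 ± 0.15, adjusted p = 0.0013), SLC26A4, B3GALT2, HS3ST3B1, STX11, TMCC3, FAM110B and LRATD1, but not KIAA0408, which was at 6.77 and 3.90 CPM with NT and 1.75 and 3.08 CPM at 1000 nM.

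**Figure D2:**
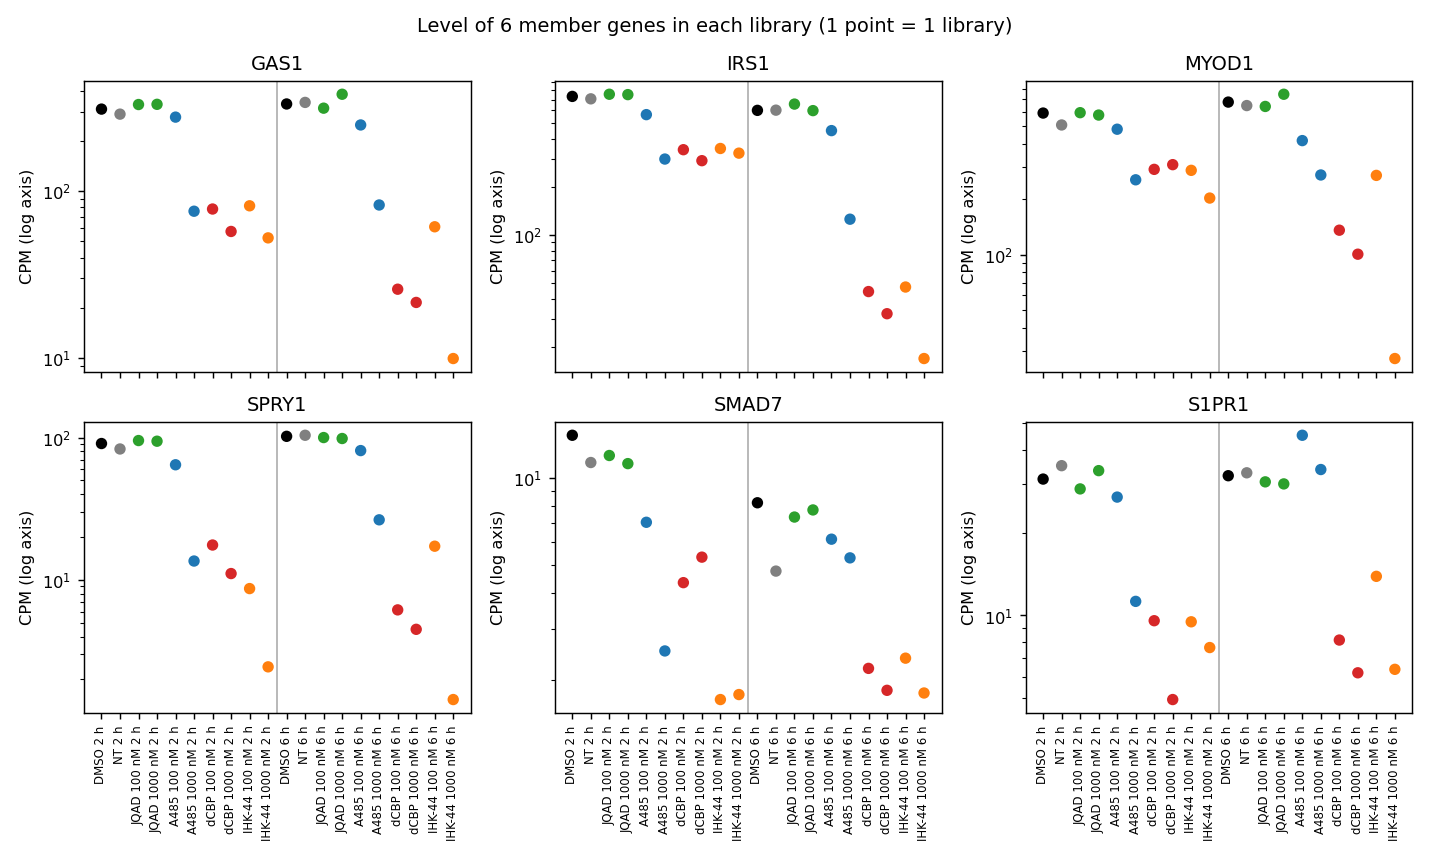
Level of 6 members in each of the 20 libraries, in CPM on a log axis, with 1 point for 1 library and 2 h on the left of each panel. GAS1, IRS1, MYOD1 and SPRY1 are lower with 1000 nM A485 at both times, whereas SMAD7 and S1PR1 are low at 2 h and at the level of NT at 6 h.

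At both times each of the 124 members was lower at 1000 nM than at 100 nM, against 20.4% of the 10416 genes. The median difference was -0.85 at 2 h and -0.93 at 6 h, where the medians of all genes were 0.03 and 0.09. The order 1000 nM below 100 nM below NT held at both times for 117 members and for 10.2% of all genes. In the fit, 102 of the 124 fell from 100 nM to 1000 nM and none rose, against 1.62% of the 13001 genes lower, with a median log2 change of -1.01 and a range of -1.96 to -0.50. The members made up 48.3% of the 211 genes of the whole table that fell between these doses. The count was 65 without the 100 nM library of 2 h and 57 without that of 6 h, and 3 in the fit of 20 libraries.

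At 100 nM, 123 members at 2 h and 118 at 6 h were below NT. Their median ratio to NT was -0.52 at 2 h and -0.52 at 6 h, and 15 members at 2 h and 26 at 6 h were at or under -0.8, against 0.365% and 1.02% of all genes. Both times were past it for 8 members and for 0.154% of all genes. Both 100 nM libraries were below both NT libraries for 112 members, against 15.8% of genes. In the fit 24 members fell and none rose (0.292% of the genes tested fell), with a median of -0.55. This count was 3 or 4 whenever 1 library of NT or of 100 nM A485 was left out, 43 with DESeq2, 13 against DMSO, 5 in a fit without DMSO and 0 in the fit of 20 libraries. As a share of the fitted log2 change at 1000 nM, that at 100 nM had a median of 34.8% and ran from -2.06% in S1PR1 to 71.9% in TLE3.

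The 24 members that fell at 100 nM came from 8 of the 10 classes. None was among the 4 growth arrest or apoptosis genes or the 4 RNA-binding or RNA-modifying genes. Classes of 4 are too small for this absence to be read as a difference. They included the transcription factors ATF3 and HES1, the cofactors CITED2 and IRF2BP2, the ligands or secreted proteins ADAMTS1, BMP2 and DLL1, the surface proteins FLRT3, FZD8, MCHR1 and PTCH1, the inhibitors BAMBI, DACT1, ERRFI1 and LRIG3, the signalling proteins DYRK2, PRAG1, PRICKLE1, SASH1 and SH2D3C, and ENC1, INKA2 and TMCC3. FLRT3 (-1.31 ± 0.12, adjusted p = 0.0013) and ENC1 (-0.86 ± 0.08, adjusted p = 0.0013) had the lowest adjusted p. HES1, a Notch-responsive repressor, was at 13.9 and 15.4 CPM with NT, 7.44 and 6.48 CPM with 100 nM and 2.97 and 2.99 CPM with 1000 nM (-1.10 ± 0.15, adjusted p = 0.017 for the low dose). HES1 was lower at 1000 nM than at 100 nM and lower at 100 nM than with NT at both times. That order held for 10.2% of the 10416 genes.

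The steepest steps between the doses belonged to SPRY1, FLRT3, GAS1, IRAK3, TRPS1, STC1, ZFP36L1 and CITED2. SPRY1 differed by -1.96 ± 0.17 (adjusted p = 0.00022) and GAS1 by -1.81 ± 0.11 (adjusted p = 2.2e-05) between 1000 nM and 100 nM. At 100 nM, GAS1 differed from NT by -0.28, with an adjusted p of 0.44. IRAK3 (-1.64), TRPS1 (-1.63), STC1 (-1.62), ZFP36L1 (-1.55) and CITED2 (-1.54) passed as well, although IRAK3 and STC1 were under 10 CPM in the controls. TRPS1, a GATA-type repressor, was at 21.6 and 21.6 CPM with NT, 12.5 and 14.5 CPM with 100 nM and 5.82 and 3.42 CPM with 1000 nM. STC1 was at 10.4 and 6.76 CPM with NT, 5.58 and 4.50 CPM with 100 nM and 2.20 and 1.25 CPM with 1000 nM, and IRAK3 at 6.93 and 4.31, 4.74 and 4.37 and 1.68 and 1.37 CPM. In these 3 genes, as in SPRY1 and GAS1, the high dose lay under the low dose at both times. That held for each of the 124 members and for 20.4% of the 10416 genes. IL1RAPL2 was close to NT at 100 nM (68.7 and 71.4 CPM against 83 and 72.5 CPM). At 1000 nM it was at 29.6 and 26.4 CPM, and between the doses it differed by -1.39 ± 0.10 (adjusted p = 8.0e-05).

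The shallowest steps were those of FGF9, RBM24, SNAI1, TLE3 and KIAA0408. RBM24 still fell between the doses (-0.54 ± 0.09, adjusted p = 0.016), and the other 4 did not pass. TLE3, a Groucho-type corepressor, was at 85.4 and 72.4 CPM with NT. It was at 49.4 and 19.8 CPM with 100 nM and 42.2 and 10.1 CPM with 1000 nM (-0.52 ± 0.36, adjusted p = 0.59). On the log2 scale of CPM plus 1 its doses differed by -0.22 at 2 h and by -0.91 at 6 h. Its 2 times lay far apart at both doses. FGF9 was at 15.3 and 10.6 CPM with NT, 8.71 and 7.44 CPM with 100 nM and 4.98 and 6.23 CPM with 1000 nM. It differed by -0.58 ± 0.19 (adjusted p = 0.20), SNAI1 by -0.54 ± 0.15 (adjusted p = 0.14) and KIAA0408 by -0.50 ± 0.39 (adjusted p = 0.64). The direction of TLE3 and of KIAA0408 turned to 0.044 and 0.076 when the 1000 nM library of 6 h or of 2 h, respectively, was left out. The remaining members that did not pass for dose were BHLHE40, BMF, GADD45G, HEYL, MCHR1, MN1, MYCL, PCDH18, RGMA, RGS3, S1PR1, SLC26A4, SMAD7, TAGLN3, TBX2, TFAP2B, THEMIS2 and TRIB1.

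**Figure D3:**
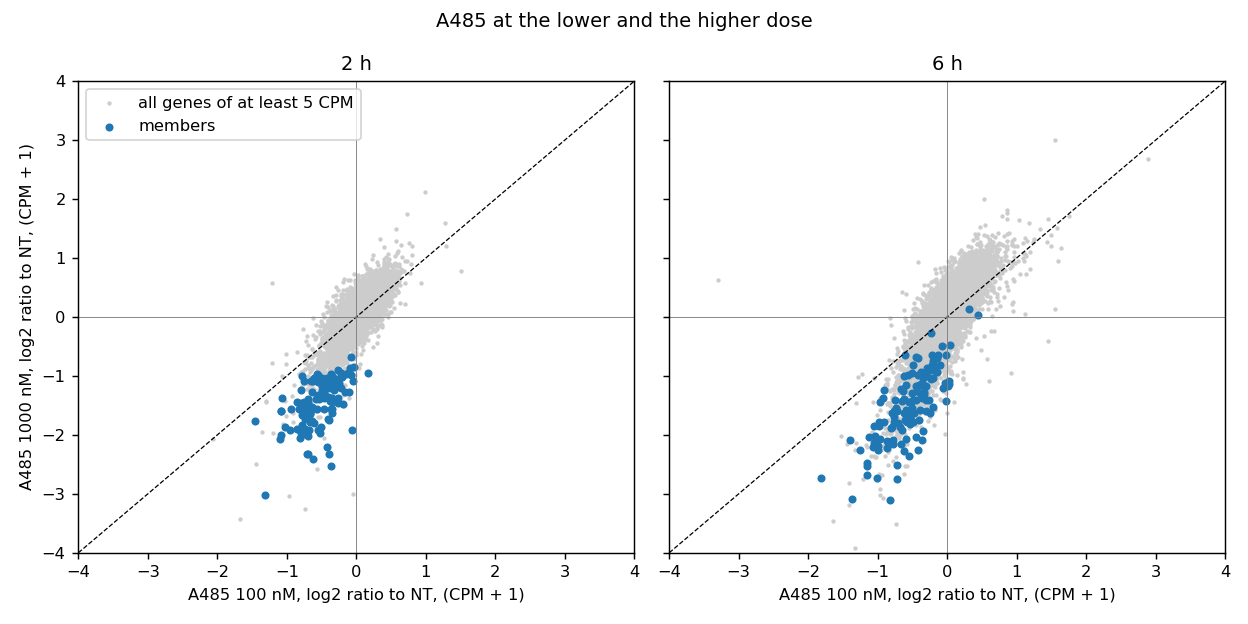
Log2 ratio to NT of the same time (CPM + 1) with 100 nM A485 (x axis) and 1000 nM A485 (y axis) at 2 h and 6 h, for the 124 members (blue) and the 10416 genes of at least 5 CPM (grey, 1 gene outside the axes at 2 h). Both axes share the NT library. The 124 blue points lie below the dashed line of equal ratios at both times.

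With JQAD the members' median ratio to NT was -0.04 and -0.07 with 100 nM and -0.06 and -0.07 with 1000 nM at 2 h and 6 h, with medians of -0.02 to -0.01 over all genes. None of the 124 was at or under -0.8 in any JQAD library, against 0.0768% (100 nM, 2 h), 0.0096% (100 nM, 6 h), 0.307% (1000 nM, 2 h) and 0.0384% (1000 nM, 6 h) of the 10416 genes. In the fit, 0 members fell or rose at either dose, and 0% of the 13001 genes did. At an unadjusted p under 0.05 there were 1 of the 124 members and 310 of the 13001 genes at 1000 nM. At 100 nM there were 6 of the 124 members and 148 of the 13001 genes. DESeq2 called 0 members at either dose. At an unadjusted p under 0.05 it had 0 members and 115 genes at 1000 nM, and 3 members and 47 genes at 100 nM.

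A missed threshold does not show equal levels, so the intervals are given. At 1000 nM JQAD the fitted changes of the members ran from -0.48 to 0.30 with a median of -0.04, and their 95% intervals lay wholly above -0.8 for 116 of the 124. At 100 nM they ran from -0.55 to 0.32, with 111 intervals wholly above -0.8. MYOD1 was at 593 and 641 CPM with 100 nM and 576 and 747 CPM with 1000 nM JQAD (95% interval of the log2 change at 1000 nM -0.06 to 0.50). IRS1 was at 752 and 598 CPM with 1000 nM (interval -0.41 to 0.54). GAS1, at 332 and 381 CPM, lay above its NT level of 289.8 and 341 CPM (interval -0.02 to 0.43). In each of these 3 genes the JQAD interval excluded the value fitted for 1000 nM A485.

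Between the JQAD doses, 56 of the 124 at 2 h and 57 at 6 h were lower at 1000 nM than at 100 nM, against 51.2% and 50.5% of all genes, with median differences of 0.01 and 0.03. Below NT in the 4 JQAD libraries were 41 members, against 12.2% of all genes. Both doses of a time share 1 NT library in that count, for members and all genes alike, so the 4 ratios are not 4 separate comparisons. The members' median NT ratio to DMSO was -0.01 at 2 h and 0.03 at 6 h. Against DMSO, which entered the rule, the members' median JQAD ratios lay between -0.05 and -0.03. Those of all genes lay between -0.03 and -0.01. The cause of the members' larger share was not tested. Both 1000 nM JQAD libraries were below both NT libraries for 18 members and for 17.8% of all genes. The members under an unadjusted p of 0.05 at 100 nM were PRICKLE1 (-0.50), SH2D3C (-0.55), MCHR1 (-0.51), BDKRB1 (-0.35), TMCC3 (-0.27) and NFKBIZ (0.32), and at 1000 nM DUSP4 (0.22), each with an adjusted p of 1.0 in edgeR.

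Set directly against JQAD, A485 was lower for 122 of the 124 members at 1000 nM and higher for none, against 9.82% of genes lower and 8.91% higher, with a median log2 difference of -1.58. S1PR1 (-0.70 ± 0.32, adjusted p = 0.14) and KIAA0408 (-0.89 ± 0.38, adjusted p = 0.12) did not pass, and the count was 69 in the fit of 20 libraries. SPRY1 differed by -2.43 ± 0.17 (adjusted p = 1.0e-05) and JUN by -1.91 ± 0.17 (adjusted p = 8.3e-05). At 100 nM the 2 compounds differed in 9 members, each lower with A485, against 0.131% of genes lower and 0.00769% higher. They included ADAMTS1, ATF3, BAMBI, DACT1, ENC1, ERRFI1, FLRT3 and INKA2. The median difference at 100 nM was -0.50. Of the 95% intervals of the members, 29 held 0. The count of 9 became 0 or 1 when 1 library of either compound at that dose was left out, 29 with DESeq2 and 18 without a filter on low counts.

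**Figure D4:**
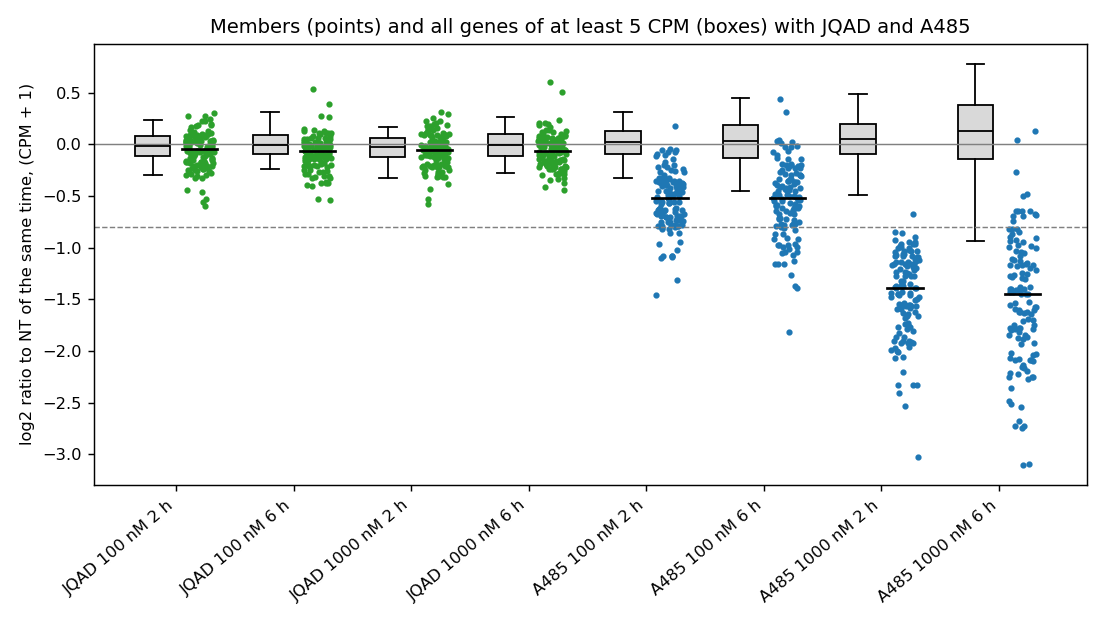
Log2 ratio to NT of the same time (CPM + 1) in the 8 JQAD and A485 libraries, as points for the 124 members with a bar at their median, beside boxes for the 10416 genes of at least 5 CPM (quartiles, with whiskers at the 5th and 95th percentiles). Member medians stay between -0.07 and -0.04 with JQAD, near -0.52 with 100 nM A485 and at -1.39 and -1.45 with 1000 nM A485 (dashed line: -0.8).

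With A485, about as many members lay deeper at 6 h as shallower. At 1000 nM the ratio to NT was deeper at 6 h for 64 members and shallower for 60, with a median difference of -0.02 (0.05 over all genes), and at 100 nM the counts were also 64 and 60. By 0.8 or more, 16 members were deeper and 10 shallower at 1000 nM. With dCBP, 111 of the 124 at 1000 nM and 115 at 100 nM had a deeper ratio to DMSO at 6 h, and with IHK-44 95 and 96, where the medians of all genes moved by 0.04 to 0.09. The dCBP and IHK-44 ratios at both times entered the rule, and with 1 library a condition the differences between times were not tested.

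Members went both ways within A485. MN1, a transcriptional coregulator, was at 301 and 278 CPM with NT and 111 and 31.5 CPM with 1000 nM, a ratio of -1.44 at 2 h and -3.10 at 6 h. HEYL went from -0.96 to -2.54, BMF from -1.37 to -3.09 and TLE3 from -1.0 to -2.73. In the other direction, S1PR1 had a ratio of -1.55 at 2 h and 0.04 at 6 h, SMAD7 of -1.80 and 0.13, and GADD45A of -1.75 and -0.74. With 1000 nM dCBP, S1PR1 was at 4.95 and 6.19 CPM and with IHK-44 at 7.65 and 6.38 CPM, values that the rule required to be low. MN1, S1PR1, HEYL, BMF and GADD45A were chosen for mention here after their values were seen.

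**Figure D5:**
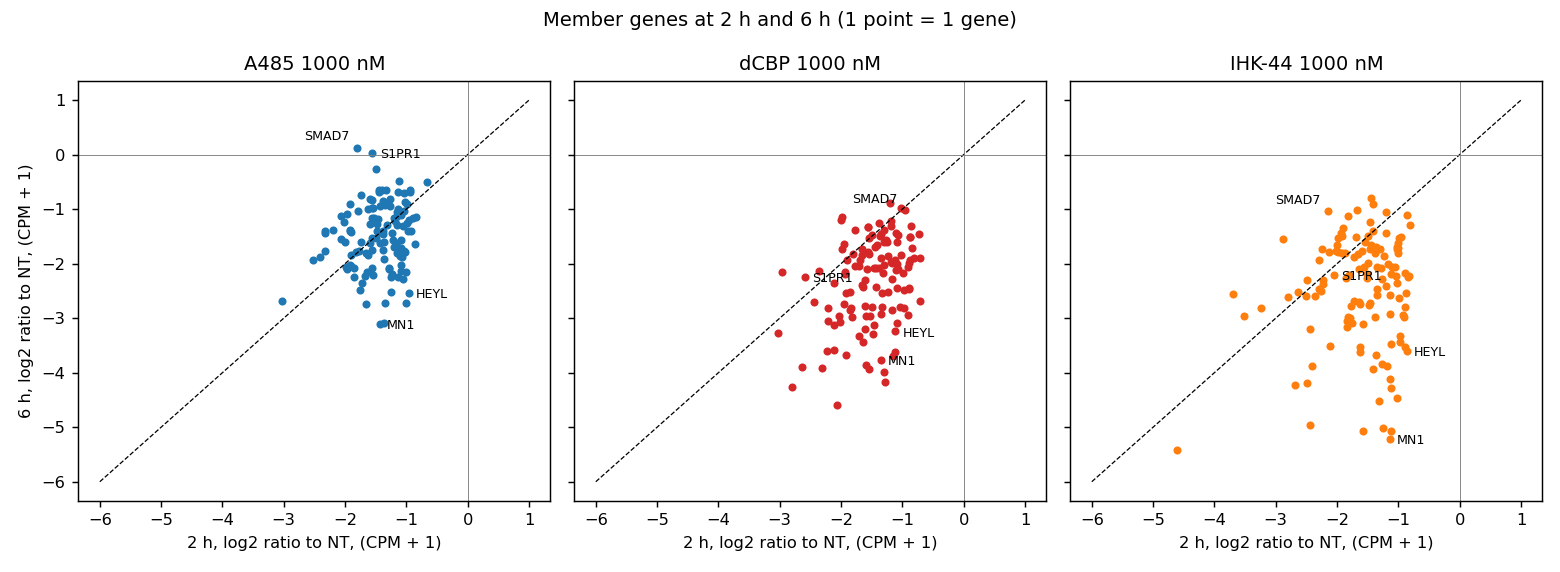
Log2 ratio to NT of the same time (CPM + 1) at 2 h (x axis) and 6 h (y axis) for the 124 members with 1000 nM of A485, dCBP and IHK-44. Points below the dashed line of equal ratios are deeper at 6 h, which holds for 64 members with A485. SMAD7 and S1PR1 lie near 0 at 6 h with A485, while the rule kept every member low with dCBP and IHK-44.

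The pathways to which members belong were followed through lists chosen with earlier results of these data known. Among 19 tested core transcription factors of the muscle and fusion-positive programme, 5 are members (FOXF1, MYOD1, SIX4 and TFAP2B among them), and 17 fell and 0 rose with 1000 nM A485, with a list median of -1.02. Of 17 tested feedback inhibitors and targets of the ERK pathway, 6 are members (DUSP1, DUSP4, DUSP6, DUSP10, PHLDA1 and SPRY1), and 10 fell and 0 rose, with a median of -0.85. Of 30 tested Notch, BMP and TGF-beta genes, 9 are members (BAMBI, BMP2, DLL1, HES1, HEYL, ID1, ID3, JAG1 and SMAD7), and 13 fell and 1 rose, with a median of -0.82. Outside the members, 12 of 14, 4 of 11 and 5 of 21 tested genes of these 3 lists fell. Of the 13001 genes, 8.31% fell and 6.61% rose, with a median of 0.02. The members in these counts were chosen for low values with other compounds.

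Immediate early genes counted 5 members (ATF3, FOSL2, IER3, JUN and ZFP36L1) among 24 tested, of which 10 fell and 1 rose. Early cell cycle and apoptosis regulators counted 3 members (GADD45A, GADD45G and MYCL) among 22 (11 fell, 3 rose), WNT genes 1 (FZD8) among 15 (5 fell, 0 rose), known PAX3-FOXO1 targets 1 (TFAP2B) among 21 (10 fell, 1 rose) and chromatin and CBP/p300 partner genes 1 (CITED2) among 17 (3 fell, 4 rose). Outside the members, 5 of 19 immediate early genes, 8 of 19 cell cycle and apoptosis regulators, 4 of 14 WNT genes, 9 of 20 PAX3-FOXO1 targets and 2 of 16 chromatin genes fell. The housekeeping list held no member, and 2 of its 15 genes fell. These counts stand beside 8.31% of the 13001 genes that fell and 6.61% that rose. In lists of this size a few genes move the share widely. With JQAD none of the tested genes of these lists passed at either dose.

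The median gene span in RefSeq was 15586.5 bases over the 124 members and 33343 bases over 10344 genes of at least 5 CPM, and 24 members (19.4%) were under 5000 bases, against 7.98%. The transcript length in the files did not follow this, with a median of 3786 bases over members and 3408 bases over all. This is a description with no test. On GRCh38.p14, pairs of members on the same chromosome included FOXF1 (chr16:86510527-86515422) and FOXC2 (chr16:86566829-86569728), 51.4 kb apart. Another was HEYL (chr1:39623435-39639643) and MYCL (chr1:39895428-39901917), 256 kb apart. Pairs at such distances were not counted over all genes, so whether members lie closer together than other genes was not tested.

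Low levels limit some values. The mean control level of the members ran from 5.40 to 660.5 CPM with a median of 64.5, against 45.3 over the 10416 genes, and 12 members were under 10 CPM. The smallest count in the 2 h DMSO library was 102, in IRAK3. KIAA0408 with 5.40 CPM and SMAD7 with 9.58 CPM, which did not pass with 1000 nM A485, are among these 12.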

How the data were processed

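Total RNA of RH4 cells was sequenced in 20 libraries, 1 per condition; 12 further ChIP-seq and ChRO-seq samples were not analysed here. Per the submitters' processing notes, STAR 2.5.3a and RSEM 1.3.3 were among the tools used. The authors deposited, per coding gene, expected counts, TPM, FPKM and CPM (expected counts scaled to the same coding total in each library), per the file headers and the values. FPKM deposited by the authors were used only to compare levels between genes, and TPM only as an alternative. Members were chosen on log2(CPM + 1) ratios, which understate changes of low genes. Expected counts were rounded and fitted with edgeR 4.0.16 (R 4.3.3; TMM, filterByExpr, quasi-likelihood test, Benjamini-Hochberg over 13001 genes). The fit had a level for DMSO, NT and each dose of A485 and JQAD plus a time term, leaving 5 residual degrees of freedom (common BCV 0.0960). The labels do not say that libraries came from separate cultures. The p-values measure the spread left after the level and time terms. That spread includes how a condition's change differed between 2 h and 6 h, and part of it may be technical. The fit was tried on simulated counts without a difference between times. That simulation cannot check how well the 2 times serve as replicates. The members and lists were chosen with earlier results of these data known. Levels with NT and A485 and a fitted change were given for the members with the highest control CPM, the lowest rule ratios, the largest and smallest A485 dose steps, the lowest adjusted p with 1000 nM A485, those on the lists and those just inside the threshold, with the exceptions below. Alternatives were DESeq2 1.42.0, RLE scaling, no filter, DMSO as control, 20 libraries, leaving out each library and other settings of the rule. The fit without DMSO libraries was chosen after seeing the data. Some members and 1 gene list are not reported here by name.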

Additional observations from a re-analysis of the deposited data

Results flagged for a closer look

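Members with lower levels under A485 than under JQAD numbered 122 at 1000 nM and 9 at 100 nM, by edgeR's quasi-likelihood test of the difference between the 2 compounds. SMAD7 had a ratio to NT with 1000 nM A485 that was higher by 1.93 at 6 h than at 2 h (from -1.80 to 0.13), and S1PR1 one that was higher by 1.59 (from -1.55 to 0.04). Each thus lay below NT at 2 h and above it at 6 h. The difference between the times was not tested, since each rests on 1 library, and SMAD7 was at 4.76 CPM with NT and 8.21 CPM with DMSO at 6 h.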

How the results depend on the processing

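Fitting the 20 libraries together left 69 members lower with 1000 nM A485 against NT, 69 against JQAD, 3 between the A485 doses, and 0 at 100 nM against NT or JQAD. For 100 nM A485, DESeq2 gave 43 against NT and 29 against JQAD, the absence of a filter 18 against JQAD, DMSO as control 13, and a fit without DMSO libraries (chosen after seeing the data) 5 and 4. Leaving out 1 library gave 119 to 124 members for 1000 nM A485 against NT, 117 to 124 against JQAD, 57 to 113 between doses, 3 to 4 for 100 nM against NT and 0 to 1 against JQAD; in a lone library the spread was taken from the other conditions. The number of all genes called also changed widely with the library left out, so these ranges alone do not show how stable the members' calls are. With 1000 nM A485 the members' median log2 change ran from -1.72 to -1.50 against NT and from -1.14 to -0.95 between doses. Without the 1000 nM A485 library of 2 h the dose change of KIAA0408 was 0.076 (other libraries left out, down to -1.23). Without that of 6 h the dose change of TLE3 was 0.044 (others down to -1.55). The cause was not tested. A rule threshold of -1 kept 71 genes. With TPM the rule took 277 genes, 119 of them members, and the median A485 ratios at 1000 nM were -1.0 and -1.06; the cause was not tested. The pseudocount of 0.1 gave 133 genes, a minimum of 1 CPM 130, a minimum of 10 CPM 112, centred ratios 138 and NT as control 125, of which 111 are members. RLE scaling moved no count by more than 1.5 times. No paired analysis was possible because the labels give no replicate numbers shared between groups; the time term of the fit matches libraries by time only. Depth limits members near 5 CPM, whose counts start at 102 in the 2 h DMSO library. With 1000 nM A485 these members were lower than with NT.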
